A study of Homo sapiens with 2 samples.

Results

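The genes of the autophagy machinery and of the mTORC1 regulators were examined in HL-60 cells, a line grown from a human promyelocytic leukaemia. They were chosen by name, as 48 genes in 11 groups by role, and all 48 had at least 1 probe set of their own among the 18404 genes measured. The wild-type line, grown in DMEM with fetal bovine serum and with no other treatment named in the labels, was read on 2 Affymetrix Human Gene 1.0 ST arrays, labelled replicates 1 and 2. They form 1 group, so no condition was compared and no test between groups exists; nothing in the labels says that the replicates were separate cultures, and their spread could be technical only. Values are RMA signals on the log2 scale, and the number of arrays limits the precision. Because probes differ in how well they bind, the signals of different genes were not ranked as transcript levels.

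Autophagy delivers cytoplasm to the lysosome inside a double membrane. The ULK kinase complex starts the process and the class III PI3-kinase complex marks the forming membrane with PI3P. Conjugation enzymes then attach the ATG8 proteins (the LC3 and GABARAP families) to that membrane, where cargo receptors dock. The kinase complex mTORC1 holds ULK1 inactive while amino acids are plentiful. The RAG GTPases bring mTORC1 to the lysosome, where RHEB activates it, and GATOR1 and the TSC complex switch off the RAGs and RHEB respectively.

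Most of the machinery read above the olfactory receptor background, and fewer genes above a second one. Of the 48 genes, 43 (89.6%) exceeded on both arrays the 95th percentile of 359 olfactory receptor genes, sensory genes that serve here as background (2.98 on replicate 1 and 2.88 on replicate 2), against 55.8% of all genes. All 14 genes of the mTORC1 side passed, as did 29 of the 34 autophagy genes. The exceptions were ULK2, MAP1LC3A and OPTN on both arrays, ATG14 on replicate 1 and ATG4B on replicate 2. The call on ATG4B rests on the mean of its 2 probe sets, of which 1 passed on both arrays, barely so on replicate 2 (2.882 against 2.878). With the probe set of the higher mean signal 44 of the 48 genes passed. At a second, stricter threshold, the 95th percentile of 115 keratin-associated, bitter taste receptor and beta-defensin genes (5.41 and 5.23), 12 of the 48 passed on both arrays, or 25% against 17% of all genes. Of those 115 genes, 37 (32.2%) passed the olfactory threshold on both arrays, so a pass at that threshold alone does not establish expression. The 99th percentile of the olfactory receptors (3.60 and 3.76) was passed by 38 of the 48 (79.2%) and by 40% of all genes. The median signal of the 48 genes was 4.58 on replicate 1 and 4.80 on replicate 2, where all genes had medians of 3.35 and 3.34.

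**Figure D1:**
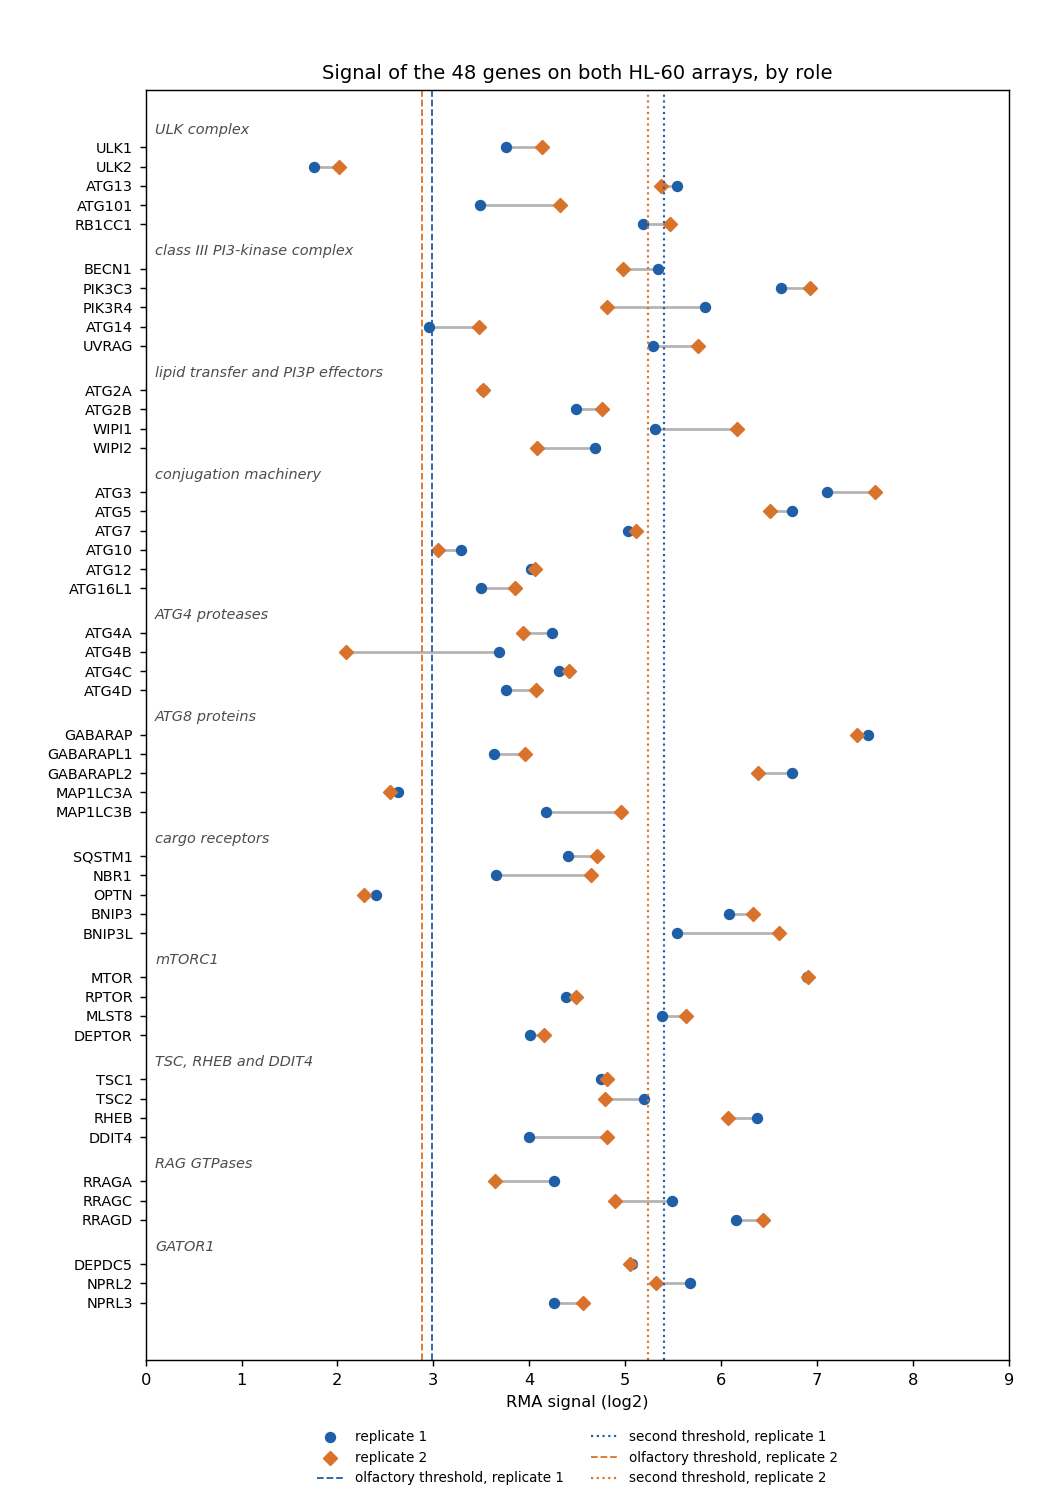
RMA signal (log2, horizontal axis) of each of the 48 genes on replicate 1 (circles) and replicate 2 (diamonds), grouped by role; dashed and dotted lines are the olfactory and the second background threshold of each array. ULK2, MAP1LC3A and OPTN lie left of the dashed lines on both arrays, and GABARAP and ATG3 lie right of all lines.

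The difference between the arrays, replicate 2 minus replicate 1, had an SD of 0.39 over all genes, or 0.28 per array. Over the 48 genes its SD was 0.51, and 0.45 without ATG4B. On replicate 2, 29 of the 48 genes read higher and 18 lower, and ATG2A was equal. Among all genes 42.1% read higher on replicate 2, and 47.7% of those above background on both arrays. The median difference was 0.11 over the 48 genes and -0.04 over all genes. A total of 7 genes (ATG101, ATG14, WIPI1, MAP1LC3B, NBR1, BNIP3L and DDIT4) were higher by more than 0.5, a rule that 7.95% of all genes met. Another 5 (PIK3R4, WIPI2, ATG4B, RRAGA and RRAGC) were lower by more than 0.5, against 9.58% of all genes, so that count lies near the background. Beyond a difference of 1 there were 1 higher gene, BNIP3L, and 2 lower genes, PIK3R4 and ATG4B (1.08% and 0.88% of all genes). With 1 array on each side none of these differences has a replicate check.

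**Figure D2:**
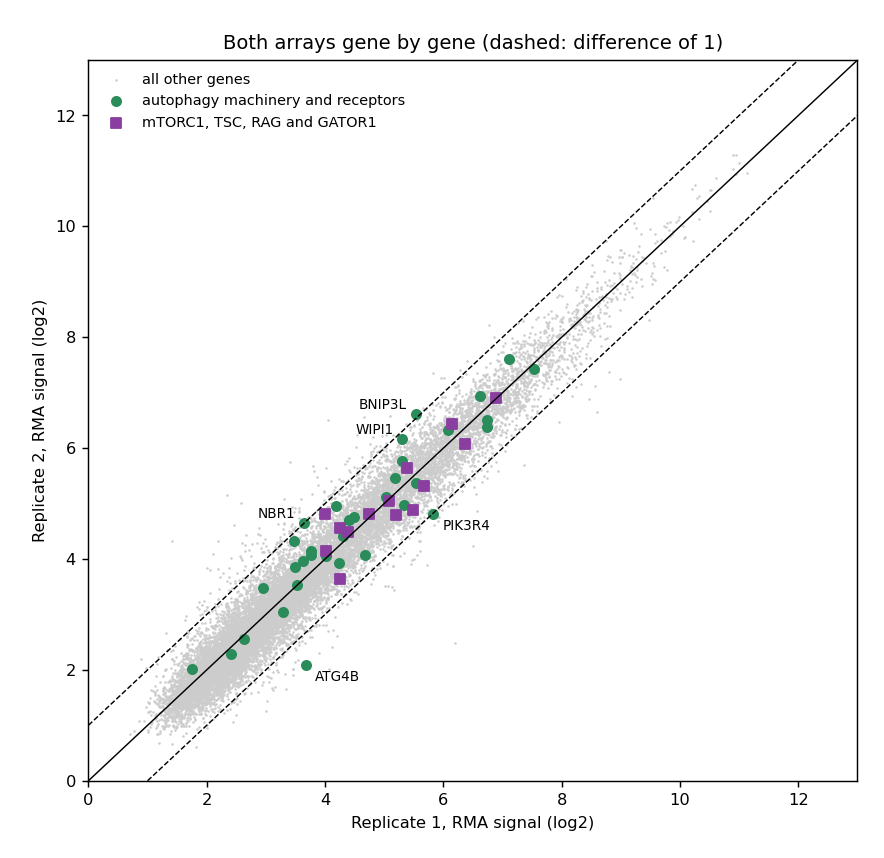
RMA signal (log2) on replicate 1 (horizontal) and replicate 2 (vertical) for every gene (grey), the 34 autophagy genes (circles) and the 14 genes of the mTORC1 side (squares); dashed lines mark a difference of 1. ATG4B lies clearly below the lower dashed line, PIK3R4 on it and BNIP3L just above the upper one.

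The label of the line was checked against lineage markers. All 7 measured promyelocyte markers passed the olfactory threshold on both arrays, against 0 of 5 mature neutrophil, 0 of 4 monocyte and 0 of 4 T and NK cell markers. On both arrays 1 of 2 B cell markers (CD79B) and 1 of 4 epithelial markers (KRT18) also passed, and 0 of 2 erythroid ones. The neutrophil markers S100A9 (2.85 and 3.17) and LTF (2.51 and 3.18) and the erythroid marker ALAS2 (2.70 and 3.14) passed on replicate 2 only. AZU1 passed narrowly on replicate 1, at 3.01 against 2.98. The promyelocyte markers had a median signal of 8.21 on replicate 1 and 7.24 on replicate 2; 3 of the 7 read higher on replicate 2 and 4 lower. The granule genes CTSG (8.99 and 7.24), PRTN3 (7.95 and 6.47) and MPO (8.21 and 7.48) were lower by more than 0.5 and SRGN (9.25 and 9.003) by less, whereas ELANE (4.47 and 4.71), AZU1 (3.01 and 3.19) and the progenitor factor MYB (9.29 and 9.53) were higher. The part of these differences in the results was not tested.

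Promoter sequences of 6 of these genes are shown because they hold short DNA words read by known regulators of the pathway. TFEB, the transcription factor that mTORC1 keeps out of the nucleus, binds elements built on CACGTG, and the hypoxia-inducible factors bind words such as ACGTGC. RefSeq windows (GRCh38.p14) were found for 39 of the 48 genes, 48 windows in all, and the 250 bases before each start were searched on both strands. CACGTG was present in 10.4% of the 48 windows and in 6.34% of all 35116 windows. The longer CACGTGAC, which contains it, was present in 8.33% and 2.16%, in ATG14, ATG3, RRAGC and TSC2. ACGTGC, which can overlap CACGTG, was present in 12.5% and 5.83%, in ATG3, BNIP3, DDIT4, GABARAPL2, RRAGC and WIPI2. TGATGNAA, a word read by ATF4, was present in 2.08% (TSC2 alone) and 3.14%. These matches are descriptions of the letters and not evidence of binding. The 30 bases around the word in the windows of ATG14 (chr14:55411833-55411862, minus strand), ATG3 (chr3:112561964-112561993, minus strand) and TSC2 (chr16:2047858-2047887, plus strand) read as follows, with CACGTGAC or its reverse complement in capitals.
ATG14: aaacaaaatccCACGTGACtggctctcctc
ATG3: ccctttctcacGTCACGTGccgggagagtc
TSC2: catgcggccccGTCACGTGatgcaaggatc

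Whole 250-base stretches are given for 3 genes. RRAGC (chr1:38859773-38860022, minus strand) carries the same word, in capitals. In RRAGC, and in ATG3 above, a match to ACGTGC overlaps the capitals and is not marked. Nor is the match to TGATGNAA in TSC2 above, which overlaps the end of its capitals. BNIP3 (chr10:131981924-131982173, minus strand) and DDIT4 (chr10:72273674-72273923, plus strand), known targets of the hypoxia-inducible factors, carry ACGTGC or its reverse complement, in capitals; in BNIP3 both strands' matches overlap around a CACGTG.
RRAGC: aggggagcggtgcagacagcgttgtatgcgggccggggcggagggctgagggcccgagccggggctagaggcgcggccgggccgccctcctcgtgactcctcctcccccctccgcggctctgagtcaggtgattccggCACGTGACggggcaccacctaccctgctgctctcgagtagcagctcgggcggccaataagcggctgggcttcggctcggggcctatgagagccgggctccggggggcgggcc
BNIP3: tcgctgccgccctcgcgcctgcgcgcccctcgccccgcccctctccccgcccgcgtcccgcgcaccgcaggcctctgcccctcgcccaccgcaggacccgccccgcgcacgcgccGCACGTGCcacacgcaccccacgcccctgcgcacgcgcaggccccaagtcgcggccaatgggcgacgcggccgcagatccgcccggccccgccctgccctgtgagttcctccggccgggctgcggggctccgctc
DDIT4: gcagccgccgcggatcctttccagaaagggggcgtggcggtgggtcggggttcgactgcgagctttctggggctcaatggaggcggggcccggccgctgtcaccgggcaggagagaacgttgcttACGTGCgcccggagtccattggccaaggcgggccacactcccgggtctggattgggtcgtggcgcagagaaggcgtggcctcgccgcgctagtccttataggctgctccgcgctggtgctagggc
The 4 genes with CACGTGAC did not share a direction between the arrays. ATG3 and ATG14 read higher on replicate 2 by 0.50 and 0.53, whereas the differences of RRAGC and TSC2 were -0.59 and -0.40. Nor did the 6 genes with ACGTGC share a direction. ATG3, BNIP3 and DDIT4 read higher by 0.50, 0.25 and 0.81, whereas the differences of WIPI2, RRAGC and GABARAPL2 were -0.60, -0.59 and -0.36. The part of either word in these differences was not tested.

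In the ULK complex, 4 of 5 genes exceeded the olfactory threshold and 1 of them the second as well. The kinase gene ULK1 read 3.76 on replicate 1 and 4.14 on replicate 2, while its paralog ULK2 read 1.75 and 2.02, below background on both arrays. ATG13, the adaptor that mTORC1 and ULK1 both phosphorylate, read 5.54 and 5.38 and was the member above the second threshold on both arrays. The scaffold gene RB1CC1, which encodes FIP200, read 5.18 and 5.47, above the second threshold on replicate 2 only. ATG101, the partner of ATG13, read 3.48 and 4.32 (3.90 ± 0.60, SD, n = 2), a difference of 0.84 or 1.79-fold. In all, 4 of the 5 genes were higher on replicate 2, ATG13 being the exception. The share was 42.1% among all genes and 47.7% among those above background on both arrays.

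The class III PI3-kinase complex contained both a gene much lower and a gene higher on replicate 2. The catalytic subunit gene PIK3C3 (VPS34) read 6.62 and 6.93, above both thresholds on both arrays. PIK3R4, which encodes the VPS15 subunit that holds PIK3C3, read 5.83 and 4.81 (5.32 ± 0.72, SD, n = 2). Its difference of -1.01, or 2.02-fold, took it below the second threshold on replicate 2. The scaffold gene BECN1 read 5.34 and 4.98. ATG14, which directs the complex to autophagosomes, read 2.95 and 3.48, just under the olfactory threshold on replicate 1 and above it on replicate 2. UVRAG, which takes the place of ATG14 in the endosomal form of the complex, read 5.29 and 5.76. The obligate partners PIK3C3 and PIK3R4 differed in opposite directions between the arrays, but the 0.31 of PIK3C3 lies within the SD of the difference over all genes, 0.39.

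Among the genes that act on PI3P and supply lipid, all 4 exceeded the olfactory threshold, and 0 the second on both arrays. The PI3P-binding WIPI1 read 5.31 and 6.17 (5.74 ± 0.61, SD, n = 2), higher on replicate 2 by 0.86. Its paralog WIPI2, which recruits ATG16L1, read 4.68 and 4.08, a difference of -0.60. The paralogs thus differed in direction. The lipid transfer protein gene ATG2A had the same deposited value, 3.52, on both arrays, as did 5.23% of all genes, so its SD of 0 is no measure of error. ATG2B read 4.48 and 4.76 as the mean of 2 probe sets that disagreed: one read 3.72 and 4.69, the other 5.24 and 4.82.

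All 6 genes of the conjugation machinery passed the olfactory threshold and 2 passed both, and none differed by more than 0.5 between the arrays. ATG3, the E2-like enzyme that transfers ATG8 proteins to lipid, read 7.10 and 7.60, and ATG5, which is joined to ATG12, read 6.74 and 6.51; both were above the second threshold on both arrays. The E1-like ATG7 read 5.03 and 5.11. ATG12, the ubiquitin-like protein gene, read 4.02 and 4.06, and ATG10, the E2-like enzyme for ATG12, read 3.29 and 3.05. ATG16L1, which places the ATG12-ATG5 conjugate on the membrane, read 3.50 and 3.85. The difference of ATG3, 0.50, lies just inside the limit and passed it after either rescaling of the arrays.

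Of the 4 ATG4 proteases, which trim ATG8 proteins before conjugation and free them from lipid afterwards, 3 passed the olfactory threshold and 0 passed both. ATG4A read 4.24 and 3.94, ATG4C 4.31 and 4.42 and ATG4D 3.76 and 4.07. ATG4B read 3.68 and 2.09 (2.88 ± 1.13, SD, n = 2), a difference of -1.59 and the largest in size among the 48 genes. It rested on 1 of 2 probe sets, which read 4.21 and 1.29. The other read 3.15 and 2.88, above the olfactory threshold on both arrays, but only barely on replicate 2 (2.882 against 2.878). With this probe set alone, the one of the higher mean signal, all 4 proteases passed and the difference of ATG4B was -0.27, within 0.28 of 0.

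Among the ATG8 proteins, 4 of 5 genes exceeded the olfactory threshold, and 2 of the GABARAP family also exceeded the second. GABARAP read 7.53 and 7.42 and GABARAPL2 (GATE-16) 6.74 and 6.38, above the second threshold on both arrays. GABARAPL1 read 3.63 and 3.96, and MAP1LC3A read 2.64 and 2.55, below background on both arrays. MAP1LC3B, whose lipid-bound product is the usual marker of autophagosomes, read 4.18 and 4.95 (4.57 ± 0.55, SD, n = 2), higher on replicate 2 by 0.78. A further probe set matched both MAP1LC3B and its close copy MAP1LC3B2, which cannot be told apart there; it read 4.87 and 6.38, in the same direction. Closely related copies can share probes, so the signals of this family are uncertain.

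**Figure D3:**
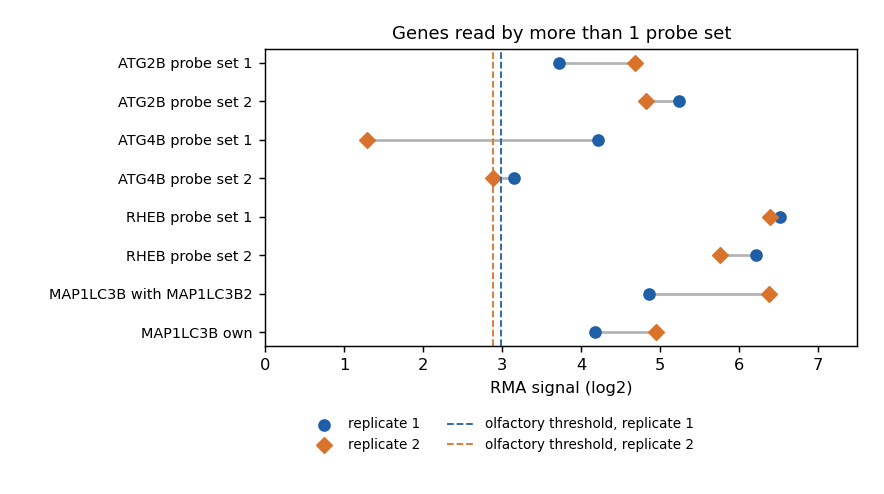
RMA signal (log2, horizontal axis) on replicate 1 (circles) and replicate 2 (diamonds) of each probe set of ATG2B, ATG4B and RHEB, of the probe set that MAP1LC3B shares with MAP1LC3B2 and of that of MAP1LC3B alone. The probe sets of ATG2B move in opposite directions, and of ATG4B only the first falls far below the dashed olfactory threshold on replicate 2.

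Among the cargo receptor genes, 4 of 5 passed the olfactory threshold and 2 passed both. The ubiquitin-binding receptor SQSTM1 (p62) read 4.40 and 4.71, and its relative NBR1 read 3.65 and 4.65 (4.15 ± 0.70, SD, n = 2), higher on replicate 2 by just under 1. OPTN, a receptor for damaged mitochondria and bacteria, read 2.40 and 2.28, below background. The mitophagy receptor gene BNIP3 read 6.08 and 6.33. Its homologue BNIP3L (NIX), which clears mitochondria from maturing red cells, read 5.54 and 6.61 (6.07 ± 0.76, SD, n = 2). Both were above the second threshold on both arrays, and the difference of BNIP3L, 1.07 or 2.10-fold, was the largest positive one among the 48 genes. Of the 5 receptors 4 read higher on replicate 2, and the median difference of the group was 0.31. Among all genes 42.1% read higher, and 47.7% of those above background on both arrays.

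All 4 genes of mTORC1 itself exceeded background on both arrays, and 0 differed by more than 0.5. Each differed by less than 0.28, the spread per array, as did 19 of the 48 genes and 56.4% of all genes. The kinase gene MTOR read 6.89 and 6.91, above the second threshold on both arrays. RPTOR, which presents substrates to the kinase, read 4.39 and 4.49. MLST8, the shared subunit of both mTOR complexes, read 5.39 and 5.63, above the second threshold on replicate 2 only. The inhibitory subunit gene DEPTOR read 4.01 and 4.15.

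In the branch that controls RHEB all 4 genes exceeded it too. TSC1 read 4.75 and 4.81 and TSC2, the GTPase-activating subunit for RHEB, 5.19 and 4.79. RHEB read 6.37 and 6.07, above the second threshold on both arrays in each of its 2 probe sets (6.52 and 6.39 in one, 6.22 and 5.76 in the other). DDIT4 (REDD1), a stress-induced inhibitor of mTORC1 that acts through TSC, read 3.999 and 4.81 (4.40 ± 0.57, SD, n = 2), higher on replicate 2 by 0.81. It was the only one of the 14 genes of the mTORC1 side that was higher by more than 0.5. Of all genes 7.95% met that rule.

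In the amino acid branch all 6 genes exceeded the olfactory threshold, and 2 of the 3 RAG genes read lower on replicate 2 by more than 0.5. Of all genes 9.58% were lower by as much, and a link between the RAG genes was not tested. RRAGA read 4.26 and 3.64 (3.95 ± 0.44, SD, n = 2) and RRAGC 5.48 and 4.89 (5.19 ± 0.42, SD, n = 2), differences of -0.62 and -0.59 in genes whose products can form 1 RAG heterodimer. RRAGD, which can replace RRAGC in the heterodimer, read 6.15 and 6.44, above the second threshold on both arrays. Of the GATOR1 genes, DEPDC5 read 5.07 and 5.05, NPRL2 5.67 and 5.32, and NPRL3 4.26 and 4.56. NPRL2 was above the second threshold on both arrays, and no GATOR1 gene differed by more than 0.5.

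**Figure D4:**
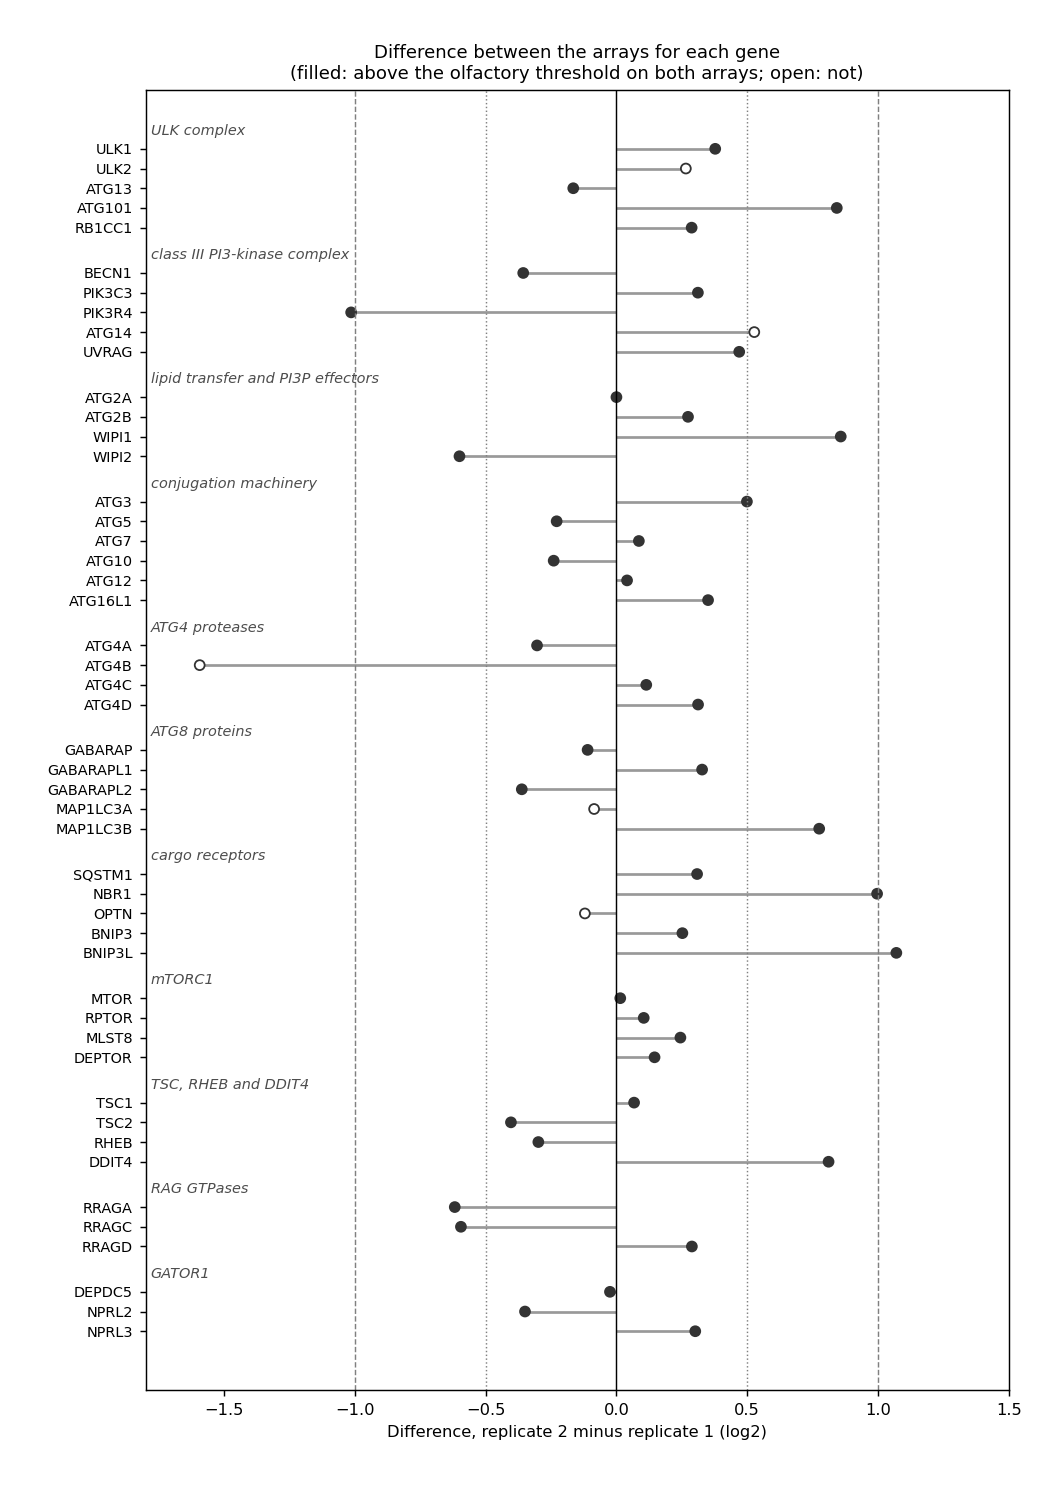
Difference of replicate 2 minus replicate 1 (log2, horizontal axis) for each of the 48 genes by role; dotted and dashed lines mark 0.5 and 1, and open points are genes not above the olfactory threshold on both arrays. Points of 4 of 5 ULK complex genes and 4 of 5 cargo receptors lie right of 0. RRAGA and RRAGC lie left of -0.5, and ATG4B at -1.59 lies farthest out. Among all genes, not drawn, 42.1% read higher on replicate 2 and 9.58% were lower by more than 0.5.

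The rest of the pathway was read from further lists. Of 22 other autophagy genes 18 exceeded the olfactory threshold and 6 of these the second, and 16 were higher on replicate 2, with a median difference of 0.31. VAMP8, a SNARE of autophagosome fusion, read 9.54 and 9.34, and the receptor gene TAX1BP1 7.31 and 7.85. The SNARE gene STX17 read 4.53 and 5.57, and PLEKHM1, an adaptor of fusion with lysosomes, read 2.01 and 3.13, above background on replicate 2 only. TECPR1 read 2.28 and 2.76, below background on both arrays. Of the 22 genes, 5 were higher by more than 0.5 and 0 lower by as much, against 7.95% and 9.58% of all genes. A higher reading on replicate 2 by any amount was seen in 42.1% of all genes and in 47.7% of those above background on both arrays.

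Of 21 measured genes of 25 in other parts of amino acid sensing 18 passed the olfactory threshold, and their median difference was 0.00. In this list 1 gene was higher and 3 were lower by more than 0.5, against 7.95% and 9.58% of all genes. The GATOR2 genes SEH1L (7.37 and 7.21) and SEC13 (7.13 and 6.64) were above the second threshold, and the KICSTOR gene KPTN was below background at 2.14 on both arrays. Of 17 measured genes of 19 for mTORC1 substrates, mTORC2 and AMPK 16 passed, with a median difference of -0.01. The translation repressor gene EIF4EBP2 read 6.85 and 6.66, the mTORC2 subunit gene MAPKAP1 6.99 and 6.30 and the kinase gene AKT2 6.58 and 5.57, lower by more than 1. PRKAA2, a catalytic AMPK subunit typical of muscle, read 1.81 and 1.98, below background.

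Of 21 measured genes of 24 in the TFEB family and the lysosome 18 passed the olfactory threshold, with a median difference of 0.07. The lysosomal genes LAMP2 (6.98 and 6.84) and CTSA (6.85 and 6.72) were above the second threshold, and TFEC, a TFEB relative, was below background (1.80 and 1.54). At the olfactory threshold the share of the 48 genes that passed, 89.6%, lay within the range of these 4 lists, 81.8% to 94.1%. At the second threshold 25% of the 48 genes passed, against 19.0% to 47.1% of the lists, the highest share being that of the mTORC1 substrates, mTORC2 and AMPK (8 of 17).

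Lists for stress programmes that include known regulators of these genes were read beside DDIT4, BNIP3L and MAP1LC3B. These lists were chosen with earlier results of these data known. Of all genes 42.1% were higher on replicate 2, 7.95% by more than 0.5, and 9.58% were lower by more than 0.5. Of those above background on both arrays 47.7% were higher. The amino acid response list holds ATF4 and genes that it controls. Of its 16 genes 13 were higher on replicate 2, 9 of them by more than 0.5, and 0 were lower by as much. The median difference was 0.61. ATF4 itself, as the mean of 2 probe sets, read 5.85 and 5.84. SESN2 (3.15 and 3.74), 1 of the 9, was also the 1 gene higher by more than 0.5 among those of amino acid sensing. CTH (4.67 and 6.56), PSPH (2.76 and 4.27) and PSAT1 (6.40 and 7.57) were higher by more than 1, as were 1.08% of all genes. PSPH rose from below background on replicate 1, but as the mean of 2 probe sets. With the highest probe set per gene, 15 in place of 14 of the list passed the olfactory threshold on both arrays, PSPH being the addition. VLDLR read 7.01 and 7.83, and ATF3 2.50 and 3.29, above background on replicate 2 only. ASNS, at 7.59 and 7.30, was lower on replicate 2. Of 13 measured hypoxia response genes of 14, 5 were higher by more than 0.5 and 0 lower, but the median difference was 0.02. VEGFA (5.83 and 7.36) and BHLHE40 (4.54 and 5.64) were higher by more than 1, while PDK1 read 6.11 and 6.00 and EGLN3 2.40, below background, on both arrays. The part of either programme in the differences of the 48 genes was not tested.

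**Figure D5:**
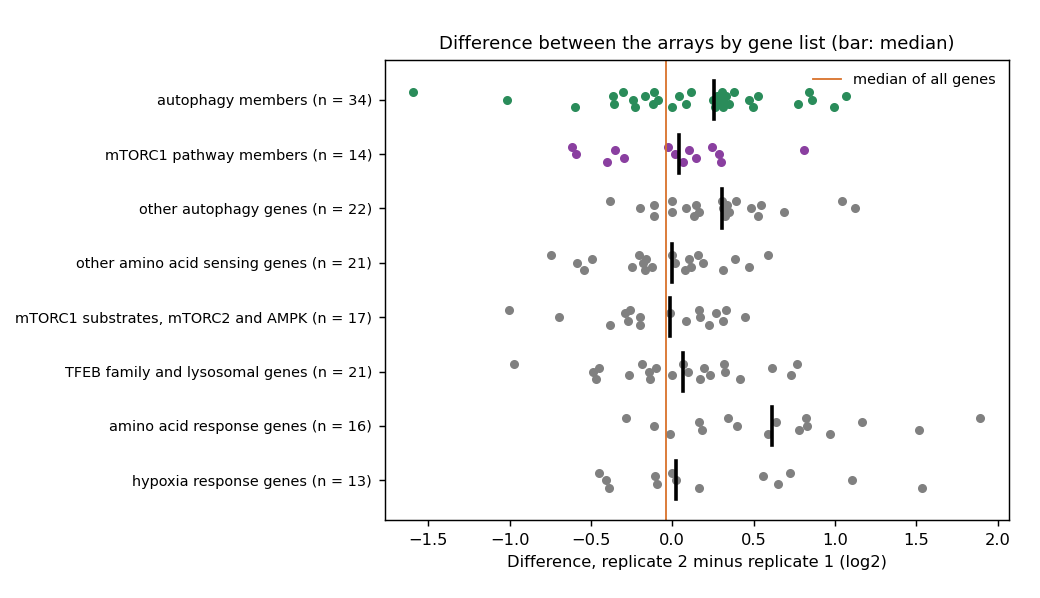
Difference of replicate 2 minus replicate 1 (log2, horizontal axis) for each gene of the 34 autophagy genes, the 14 genes of the mTORC1 side and 6 further lists; black bars are list medians and the vertical line is the median of all genes, -0.04. The medians are 0.26 for the autophagy genes, 0.04 for the mTORC1 side and 0.61 for the amino acid response genes.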

How the data were processed

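The authors deposited 1 table of log2 signals per probe set, made with RMA per the submitters' processing notes (correction for background, quantile scaling between arrays, robust probe summary). The software, its version and the set of arrays scaled jointly: not given in the sources used here. No source names the log base, and base 2 was taken as RMA's own. Quantile scaling would remove global differences between arrays, and no scanner files were used here.

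Of 32321 probe sets, 19158 had 1 symbol in the platform's annotation, 1388 several and 11775 were not listed. Symbols were updated by Entrez ID (19128 found in RefSeq, GRCh38.p14), giving 18404 genes; several probe sets of a gene were averaged. All 48 genes are named. From each further list, the 2 genes of highest and the 1 of lowest mean signal were named, with those that differed by more than 1 and passed the olfactory threshold on at least 1 array. The genes and lists were chosen with earlier results of these data known. No test was possible, so no p-values were computed; counts stand beside the same share of all genes. The steps were tested on simulated data. Alternatives were quantile normalization, removal of a loess trend, the highest probe set, other thresholds, a filter on dim genes and each array alone. Python 3.11.15, numpy 2.4.6, pandas 2.3.3, statsmodels 0.14.6 and matplotlib 3.10.9 were used.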

Additional observations from a re-analysis of the deposited data

Results flagged for a closer look

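The probe set that matches both MAP1LC3B and MAP1LC3B2 lies outside the gene-level comparison, because it names 2 genes. It read 4.87 on replicate 1 and 6.38 on replicate 2, above the olfactory threshold on both arrays and above the second on replicate 2. Its difference was 1.51, where the probe set of MAP1LC3B alone differed by 0.78.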

How the results depend on the processing

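No paired analysis was possible because both arrays belong to 1 group. With the second background set as threshold, 12 in place of 43 of the 48 genes were above background; with the 99th in place of the 95th olfactory percentile 38 were, and on either array alone 44. Genes lower by more than 1 on replicate 2 numbered 1 in place of 2 both with the highest probe set per gene and with genes above the olfactory threshold only, ATG4B dropping out. With the highest probe set the difference of ATG2B was -0.42 in place of 0.27. After quantile normalization or loess the 12 genes that differed by more than 0.5 all remained and ATG3 joined them. The median difference of the 48 genes was then 0.08 or 0.10, and that of all genes 0.00. Under these rescalings 49.4% or 50.3% of all genes read higher on replicate 2, and 29 or 30 of the 48 genes. On each array alone the genes above the second threshold numbered 14 to 16 and the median signal ran from 4.58 to 4.80. No difference over 0.5 changed sign under these settings.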
